A study of Mus musculus with 12 samples.

Results

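The genes described here are 6 members of the MHC class I antigen presentation pathway, taken by symbol from the 24079 genes counted: the heavy chains H2-K1 and H2-D1, the light chain B2m, both subunits of the peptide transporter, Tap1 and Tap2, and the loading factor Tapbp (tapasin). All 6 were among the 17823 genes that had at least 15 reads summed over the libraries and were tested. MHC class I molecules are cell surface complexes of a heavy chain and beta-2-microglobulin that display short peptides, most of them made by the proteasome, to cytotoxic T cells and natural killer cells. The transporter carries peptides into the endoplasmic reticulum, where tapasin and general chaperones help to load them onto the heavy chain. In the brain, class I genes are abundant in endothelial cells and microglia, are also transcribed in neurons, and have been studied in synapse development and plasticity.

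RNA bound to tagged ribosomes was sequenced from the hippocampus of male mice, with 6 wild-type (WT) and 6 Fmr1-/y libraries, each from a pool of 4 to 6 mice aged 2 to 6 months. The authors describe the mice as C57BL/6J. In their breeding scheme, the strain designations of the RiboTag and Wfs1-CreERT2 parent lines also name other strains. The strain origin of the MHC region in these mice was not examined here. Fmr1 encodes FMRP, an RNA-binding protein whose loss causes fragile X syndrome. Mice of both genotypes carried Wfs1-CreERT2 and RiboTag and received tamoxifen, so that Cre expressed from the Wfs1 promoter switched on HA-tagged Rpl22, a ribosomal protein, in the cells labelled as CA1 pyramidal cells. The tag is therefore limited to cells that use the Wfs1 promoter, each value is an average over a pool, and no unprecipitated RNA or antibody control library was analysed here. In such bulk samples, fewer cells of a type and less RNA per cell cannot be told apart.

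Between 39400980 and 55745464 reads were counted on genes in each WT library, and between 43106629 and 65565479 in each Fmr1-/y library. The genotype labels were checked on Fmr1, which was counted 1971 to 2608 times in every WT library. It had a count of 0 in 5 of the Fmr1-/y libraries and a count of 1 in the sixth. The CA1 pyramidal markers were present, the most abundant being Camk2a at 6016 CPM (a read count expressed relative to library size, with edgeR's TMM factors). The CA1 pyramidal markers summed to 8512 to 10570 CPM in WT and 8211 to 9764 CPM in Fmr1-/y libraries. Markers of other cells were also present. Choroid plexus and ependymal markers summed to 6474 to 11976 CPM in WT and 8443 to 17696 CPM in Fmr1-/y libraries. Among them Ttr had a mean of 9821 CPM, above that of Camk2a. Astrocyte markers summed to 2536 to 3060 CPM in WT and 2785 to 4174 CPM in Fmr1-/y libraries. Endothelial markers had a summed level of 599 to 729 CPM in WT and 672 to 1011 CPM in Fmr1-/y libraries, and microglial markers 189 to 222 and 205 to 273 CPM.

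Of the 6 members, 5 lie on mouse chromosome 17 in the MHC region and 1, B2m, lies on chromosome 2 (GRCm38, 122147687 to 122153082). H2-K1 runs from 33996012 to 34000619, Tap1 from 34187556 to 34197225, Tap2 from 34204479 to 34216321, H2-D1 from 35263094 to 35267497 and Tapbp from 33919478 to 33929290 on chromosome 17. RefSeq promoter windows of 300 bases (250 before and 50 after the listed start, GRCm38.p6) were matched for 5 of the 6. Those of both heavy chains and of the light chain are shown because these 3 chains share a motif arrangement that was not found in the windows of Tap1 and Tapbp. Capitals mark GGGGATTCC (letters of an NF-kB type site), AANNGAAA (the core of an interferon regulatory factor site), and the pair TGACG and ATTGG.
H2-K1, chr17:34000298-34000597, minus strand: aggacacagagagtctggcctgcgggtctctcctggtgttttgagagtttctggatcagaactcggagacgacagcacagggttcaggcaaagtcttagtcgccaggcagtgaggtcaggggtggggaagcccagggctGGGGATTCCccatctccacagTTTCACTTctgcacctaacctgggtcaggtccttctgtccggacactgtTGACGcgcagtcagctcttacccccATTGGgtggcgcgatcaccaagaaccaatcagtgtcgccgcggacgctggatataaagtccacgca
H2-D1, chr17:35262844-35263143, plus strand: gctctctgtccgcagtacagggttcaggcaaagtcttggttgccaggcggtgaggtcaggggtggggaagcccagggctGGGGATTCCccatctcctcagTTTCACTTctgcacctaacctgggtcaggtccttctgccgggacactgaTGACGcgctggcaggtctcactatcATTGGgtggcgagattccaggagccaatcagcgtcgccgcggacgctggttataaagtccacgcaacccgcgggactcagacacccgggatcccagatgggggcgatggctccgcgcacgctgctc
B2m, chr2:122147437-122147736, plus strand: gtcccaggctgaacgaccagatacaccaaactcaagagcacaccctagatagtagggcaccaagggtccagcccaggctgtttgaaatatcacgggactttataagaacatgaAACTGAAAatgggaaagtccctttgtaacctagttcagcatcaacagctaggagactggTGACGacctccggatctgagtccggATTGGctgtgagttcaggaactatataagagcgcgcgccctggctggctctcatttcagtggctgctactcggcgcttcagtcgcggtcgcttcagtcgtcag
The motifs were searched on both strands, and TTTCACTT in the heavy chains is AANNGAAA read on the other strand. TGACG is the core of a cyclic AMP response element and ATTGG is CCAAT read on the other strand, and the pair was searched with 18 to 22 bases between them, a range set after these windows had been seen.

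The pair was found in the windows of H2-K1, H2-D1 and B2m, with 20 bases between its parts in all 3, and not in those of Tap1 and Tapbp. Over 32851 mouse promoter windows of this length it occurred in 0.268%, while AANNGAAA occurred in 23.9% and GGGGATTCC in 0.25%. The windows holding all 3 elements numbered 4, belonging to H2-K1 (both of its listed starts), H2-D1 and H2-Q7. Among 16 other class I chains with a window, H2-Q7 and H2-M3 held the pair. The pair began 101 bases before the listed start in H2-D1, 78 in B2m and 41 in H2-K1, whose TATAAA lay 35 bases after the listed start and that of H2-D1 26 bases before it. The windows of H2-K1 and H2-D1 were 88.3% identical over 239 aligned bases. A match of letters is a description of the window and does not show that a factor binds there. The listed start of H2-K1 lies inside the annotated span of the gene.

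The heavy chains were the members with the largest differences between genotypes. H2-D1 had a level of 8.92, 12.2 and 12.9 CPM (lowest, median, highest) in WT and 13.5, 14.5 and 17.4 CPM in Fmr1-/y libraries. All 6 Fmr1-/y libraries lay above all 6 WT libraries, an arrangement seen in 38 of the genes tested, or 0.213%. The mean was 11.7 ± 1.48 CPM in WT and 14.98 ± 1.59 CPM in Fmr1-/y (SD, n = 6 each), or 128% of WT. The log2 fold change was 0.36 (SE 0.10, 95% interval 0.14 to 0.58), which ranked 150 by p among all genes and did not pass the threshold (edgeR quasi-likelihood, unadjusted p = 0.00264, Benjamini-Hochberg adjusted p = 0.313). DESeq2's Wald test gave H2-D1 an adjusted p of 0.0908.

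H2-K1 had 20.8, 25.5 and 29.7 CPM in WT and 26.5, 30.9 and 37.8 CPM in Fmr1-/y libraries. The groups overlapped: replicates 1, 2 and 5 of Fmr1-/y lay above every WT library, and the other 3 lay within the WT range. The mean was 25.6 ± 3.35 CPM in WT and 31.7 ± 5.02 CPM in Fmr1-/y (SD, n = 6 each), or 124% of WT, with a log2 fold change of 0.31 (SE 0.11, 95% interval 0.08 to 0.53; edgeR unadjusted p = 0.0121, Benjamini-Hochberg adjusted p = 0.450). The longest coding transcripts of H2-K1 and H2-D1 were 91.1% identical over 1578 aligned bases. All windows of 50 bases (the read length) in these transcripts were searched for in other genes' transcripts, on either strand. Exact matches were found for 8.79% of the windows of H2-K1 and 14.3% of those of H2-D1. For H2-K1 most of these windows were shared with H2-D1 (6.94%), and for H2-D1 the largest share was with H2-Q1 (7.4%). The authors kept alignments with up to 3 mismatches, so exact matches need not cover all reads that could align to more than 1 gene.

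**Figure D1:**
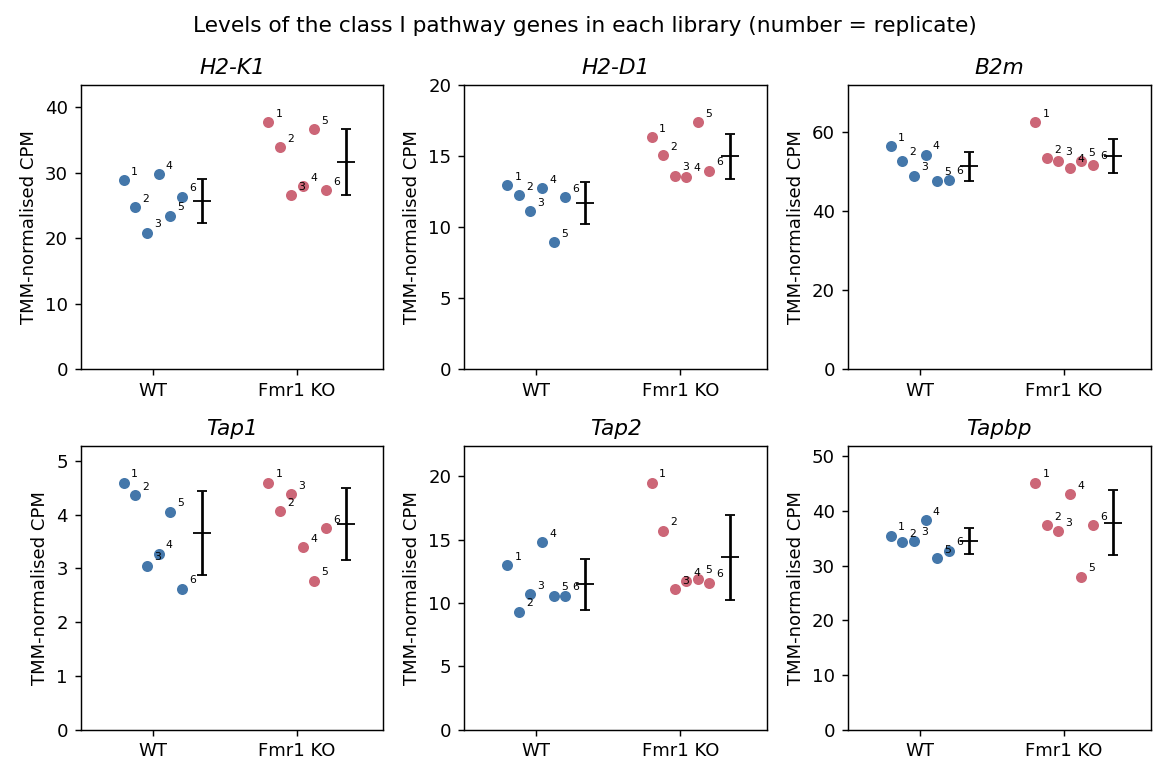
TMM-normalised CPM (vertical axis, from 0) of the 6 genes in each WT and Fmr1 KO (Fmr1-/y) library, numbered by replicate, with the mean and SD beside the points. The H2-D1 points of the genotypes do not overlap, from 8.92 to 12.9 CPM in WT and from 13.5 to 17.4 CPM in Fmr1-/y, while those of the other 5 genes do.

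B2m, the light chain common to all classical class I molecules, differed little. Its level was 47.7, 50.9 and 56.4 CPM in WT and 51.0, 52.7 and 62.6 CPM in Fmr1-/y libraries. The highest value belonged to Fmr1-/y replicate 1, and the other 5 Fmr1-/y libraries lay within the WT range. The log2 fold change was 0.07 (SE 0.07, 95% interval -0.07 to 0.22; edgeR, Benjamini-Hochberg adjusted p = 0.867), and it was 0.03 without that replicate. No window of 50 bases in its transcript occurred in another gene.

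Per kilobase of exon, B2m had the highest level of the 6, with a mean of 59.7 CPM per kb in WT and 62.8 in Fmr1-/y. H2-K1 followed with 15.5 and 19.1, Tapbp with 11.9 and 13.1, H2-D1 with 5.55 and 7.13, Tap2 with 3.34 and 3.95, and Tap1 with 1.24 and 1.30 CPM per kb. The order was the same in both genotypes, and among neighbours in it the ranges over libraries overlapped only for H2-K1 with Tapbp and for H2-D1 with Tap2, both in WT. The ratio of B2m to the sum of both heavy chains, per kilobase, was 2.58 to 3.19 (median 2.87) in WT and 2.01 to 2.73 (median 2.46) in Fmr1-/y libraries. The lowest ratio was in Fmr1-/y replicate 5, and the groups overlapped. The ratio of H2-K1 to H2-D1 was 2.38 to 3.34 in WT and 2.48 to 2.94 in Fmr1-/y libraries.

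The transport and loading genes overlapped between genotypes. Tap2, the second transporter subunit, had 9.29, 10.6 and 14.8 CPM in WT and 11.1, 11.8 and 19.5 CPM in Fmr1-/y libraries, with a log2 fold change of 0.24 (SE 0.15, 95% interval -0.07 to 0.55; edgeR, Benjamini-Hochberg adjusted p = 0.741). Only replicates 1 and 2 of Fmr1-/y lay above its WT range, and the log2 fold change was 0.11 without replicate 1. Tap1, its partner, was the least abundant member, with 105 to 249 reads per library. It had 2.62, 3.67 and 4.59 CPM in WT and 2.77, 3.90 and 4.59 CPM in Fmr1-/y libraries, with a log2 fold change of 0.06 (SE 0.17, 95% interval -0.29 to 0.42; edgeR, Benjamini-Hochberg adjusted p = 0.964). The interval of Tap1 includes 0 and also the log2 fold changes of both heavy chains, so it does not separate Tap1 from either.

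Tapbp, which bridges the transporter and the empty heavy chain, had 31.4, 34.4 and 38.3 CPM in WT and 28.0, 37.4 and 45.2 CPM in Fmr1-/y libraries. The Fmr1-/y libraries were spread more widely than the WT libraries, with 2 above the WT range and replicate 5 below it. The log2 fold change was 0.14 (SE 0.10, 95% interval -0.07 to 0.34; edgeR, Benjamini-Hochberg adjusted p = 0.803), 0.08 without Fmr1-/y replicate 1 and 0.21 without replicate 5. Of the 50-base windows of Tapbp 21.0% also occurred in other genes, mainly in Gm19412. So did 12.6% for Tap2, mainly in Gm15821, and 6.47% for Tap1, mainly in Psmb9. The reads had been counted by strand, but the strand of these matches was not recorded.

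By count, 0 of the 6 members passed an adjusted p of 0.05 in edgeR, against 4 of 17823 genes (0.0224%), and 0 passed in DESeq2, against 84 of all genes (0.471%). At an unadjusted p under 0.05, 2 members, the heavy chains, were higher in Fmr1-/y, against 764 of all genes (4.29%), and none was lower. All 6 log2 fold changes were above 0, with a median of 0.19, beside a median of 0.0042 and 9153 positive values over all genes tested. The shared sign did not hold in every fit: Tap1 was at -0.017 without WT replicate 6, and B2m, Tap1, Tap2 and Tapbp were at -0.028, -0.029, -0.095 and -0.0085 with the astrocyte marker score as a covariate. The members share libraries and 5 share a chromosomal region, so they are not independent observations.

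Chromosome 17 from Tapbp to H2-D1 spans 1348 kb and held 82 other tested genes, which lie among the members but belong mostly to other pathways. Of these, 55 had a positive log2 fold change, with a median of 0.06, beside 9153 of 17823 over all genes tested, and 0 passed the threshold in edgeR. Among the 59 with a mean of at least 1 CPM, 41 were positive, with a median of 0.05, beside 7027 of 13768 over all genes at that level. At an unadjusted p under 0.05, 3 were higher in Fmr1-/y (Col11a2, Tnxb and C4b) and 2 were lower (Ehmt2 and Prrc2a), against 4.29% and 3.67% of all genes. These 5 were picked out after their values had been seen. In Prrc2a every Fmr1-/y library lay below every WT library, an arrangement seen in 73 of all genes tested.

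The rest of the class I pathway, its regulators and receptors, and the class II presentation genes were read from lists of 87 tested genes. Of these 87, class II included, 0 passed the threshold in edgeR, and 6 were higher and 2 lower at an unadjusted p under 0.05. Their median log2 fold change was 0.03. Over all genes tested, 4.29% were higher and 3.67% lower at that unadjusted p. Of 26 other class I and class I-like chains, 18 were tested and 6 had 0 reads in all libraries. The tested chains had 13 positive and 5 negative log2 fold changes, but only 6 reached a mean of 1 CPM. H2-T23, which encodes the Qa-1 molecule, had 4.89, 6.33 and 7.01 CPM in WT and 6.41, 7.87 and 10.3 CPM in Fmr1-/y libraries. Its log2 fold change was 0.40 (SE 0.13; edgeR unadjusted p = 0.00847, Benjamini-Hochberg adjusted p = 0.410), with 4 Fmr1-/y libraries above every WT library, and 29.8% of its 50-base windows were shared with other genes.

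Fcgrt, the heavy chain of the neonatal Fc receptor, had a log2 fold change of 0.34 (SE 0.14; edgeR, Benjamini-Hochberg adjusted p = 0.551), and Hfe, a class I-like regulator of iron uptake, had 0.30 (SE 0.14; adjusted p = 0.636). Both of these chains pair with beta-2-microglobulin. H2-Q4 had 0.16 (SE 0.12; edgeR, adjusted p = 0.818), and 39.2% of its windows were shared with other genes. H2-Bl had only 40 reads in all, from 0 to 18 per library, most of them in WT libraries, and its fitted log2 fold change of -4.06 rests on those few reads (edgeR, adjusted p = 0.358).

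Among 12 endoplasmic reticulum chaperones and trimming enzymes, 10 log2 fold changes were positive, with a median of 0.08. Hspa5 (BiP), a general chaperone of the endoplasmic reticulum, had 513, 611 and 664 CPM in WT and 621, 692 and 776 CPM in Fmr1-/y libraries, with a log2 fold change of 0.21 (SE 0.07; edgeR unadjusted p = 0.00913, Benjamini-Hochberg adjusted p = 0.415). Of the components of the peptide-loading complex on that list, Pdia3 had 0.12 (SE 0.06) and Calr (calreticulin) 0.08 (SE 0.06), while Canx (calnexin), which holds newly made heavy chains, had 0.02 (SE 0.06). None of the 7 immunoproteasome and activator genes or the 3 constitutive catalytic subunits reached an unadjusted p of 0.05 in edgeR. The activator subunits Psme1, Psme2 and Psme3 had log2 fold changes of 0.15 (SE 0.09), 0.08 (SE 0.10) and 0.03 (SE 0.06), and the constitutive subunits Psmb5, Psmb6 and Psmb7 had -0.03 (SE 0.10), 0.05 (SE 0.08) and 0.05 (SE 0.07).

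The 25 regulators of class I transcription, which include interferon receptors, JAK and STAT proteins and interferon regulatory factors, were evenly divided, with 13 positive and 12 negative log2 fold changes and a median of 0.0016. Irf9, the DNA-binding subunit of the complex that acts downstream of type I interferon, had 5.86, 6.89 and 9.09 CPM in WT and 7.73, 8.98 and 11.3 CPM in Fmr1-/y libraries. Its log2 fold change was 0.35 (SE 0.12; edgeR unadjusted p = 0.0116, Benjamini-Hochberg adjusted p = 0.448), and the groups overlapped. Ifnar2, a subunit of the type I interferon receptor, had 0.19 (SE 0.09; edgeR, adjusted p = 0.591). Jak1, Ifngr2 and Nfyb, the most abundant genes of that list, had -0.07 (SE 0.06), -0.07 (SE 0.11) and -0.08 (SE 0.06).

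Of 12 tested class I receptors and partners, 5 log2 fold changes were positive and 7 negative. Tfrc, the transferrin receptor that binds Hfe, had 56.6, 64.4 and 69.3 CPM in WT and 46.6, 56.5 and 64.0 CPM in Fmr1-/y libraries, a log2 fold change of -0.20 (SE 0.08; edgeR unadjusted p = 0.0221, Benjamini-Hochberg adjusted p = 0.515). Insr had -0.03 (SE 0.06) and Tyrobp, a signalling adaptor of microglia and natural killer cells, 0.25 (SE 0.13). Class II presentation genes, which present extracellular peptides to helper T cells, mostly did not share the sign of the class I members: 9 of 10 had a negative log2 fold change, with a median of -0.11, and none reached an unadjusted p of 0.05 in edgeR. Only 6 of the 10 reached a mean of 1 CPM, and 1 of those 6 had a positive value. Cd74 had -0.04 (SE 0.13), H2-DMa -0.06 (SE 0.08), H2-Ab1 -0.02 (SE 0.14) and H2-Eb1 -0.16 (SE 0.13), and H2-DMb1 was the exception with 0.35 (SE 0.24). The difference between the class I and class II genes was not tested.

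**Figure D2:**
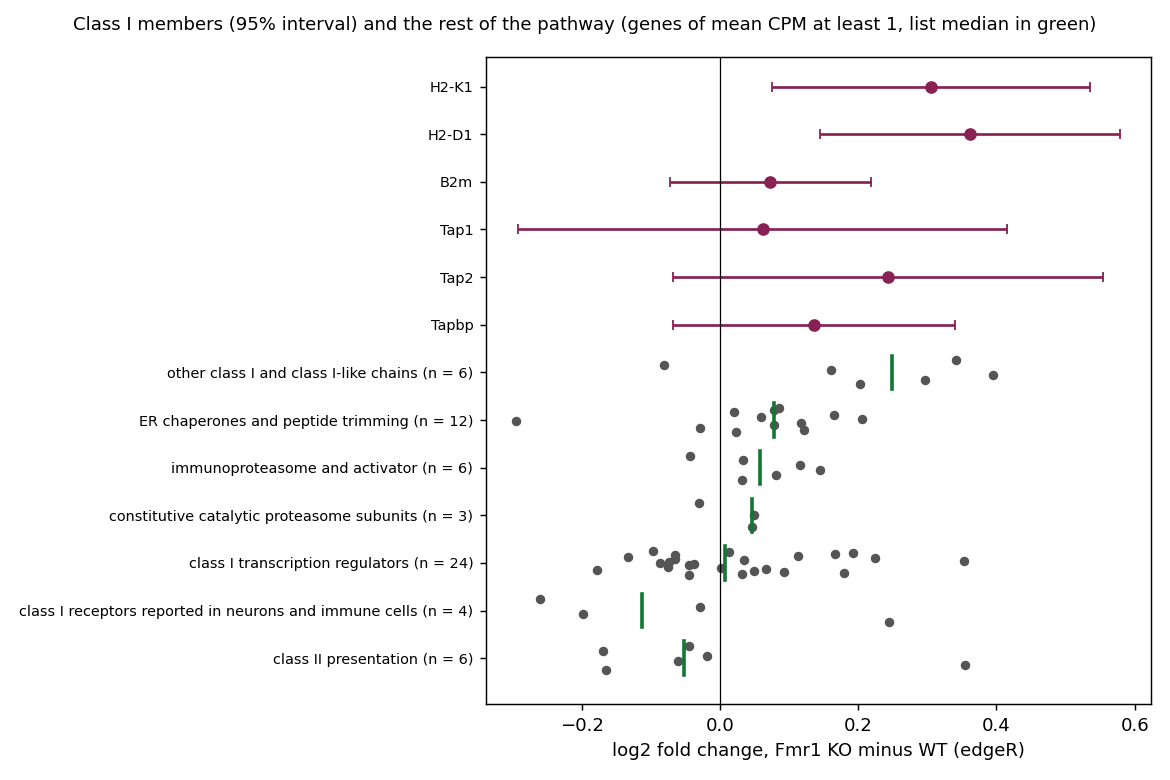
Log2 fold changes (Fmr1-/y minus WT, edgeR) of the 6 members with 95% intervals, and of the genes of the other lists, class II included, with a mean of at least 1 CPM (grey points, list median as a green bar). The intervals of H2-K1 (0.08 to 0.53) and H2-D1 (0.14 to 0.58) lie above 0, and those of the other 4 members include it.

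Markers of some other cell types had higher levels in the same Fmr1-/y libraries, although no marker score passed the threshold after adjustment. The endothelial marker score, the mean log2 CPM of 15 genes, was 3.38 to 3.87 in WT and 3.69 to 4.22 in Fmr1-/y libraries, a difference of 0.31 (2-sided exact permutation p = 0.0303, Benjamini-Hochberg adjusted over 10 marker lists p = 0.206, smallest possible p = 0.00216). All 15 endothelial markers had a positive log2 fold change and 10 were higher at an unadjusted p under 0.05 in edgeR, against 4.29% of all genes. In the other lists with a higher score, so were 6 of 10 astrocyte, 5 of 10 pericyte and meningeal, 3 of 8 choroid plexus and ependymal and 2 of 15 microglial markers. The median log2 fold change was 0.31 in the endothelial list, and 0.34 in both the pericyte and meningeal list and the choroid plexus and ependymal list. The astrocyte score was higher by 0.21 (exact permutation p = 0.0411, adjusted p = 0.206), with 10 of 10 markers higher, and the microglial score by 0.10 (exact permutation p = 0.234, adjusted p = 0.334), with 12 of 15 markers higher. The CA1 pyramidal score differed by -0.14 (exact permutation p = 0.121, adjusted p = 0.278), with all 10 markers lower. Of these, 3 were at an unadjusted p under 0.05 in edgeR, against 3.67% of all genes that were lower. Without Fmr1-/y replicate 4 that difference was -0.094, and the microglial difference was 0.041 without Fmr1-/y replicate 1. The other scores differed by 0.26 (pericyte and meningeal), 0.26 (choroid plexus and ependymal), -0.18 (oligodendrocyte), -0.14 (T and NK cell), -0.04 (CA2, CA3 and dentate granule) and -0.02 (interneuron), with adjusted p from 0.278 to 0.900 in the exact permutation test. Without Fmr1-/y replicate 1 the pericyte and meningeal difference was 0.158 and the choroid plexus and ependymal difference 0.131, and without WT replicate 4 the oligodendrocyte difference was -0.108. With a library left out, the T and NK cell difference ranged from -0.216 to -0.066, the CA2, CA3 and dentate granule difference from -0.071 to -0.0070 and the interneuron difference from -0.106 to 0.057.

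The Fmr1-/y libraries with the highest levels of both heavy chains were also those with the highest endothelial scores. The Fmr1-/y replicates 1, 2 and 5 had endothelial scores of 4.03 to 4.22 and H2-K1 levels of 33.9 to 37.8 CPM, and replicates 3, 4 and 6 had scores of 3.69 to 3.81 and levels of 26.5 to 27.9 CPM. In WT, replicates 1 and 4 had the highest scores (3.78 and 3.87) and also the highest H2-K1 levels (28.8 and 29.7 CPM). The lowest H2-D1 level, 8.92 CPM, and the lowest score, 3.38, were both in WT replicate 5. The order of levels did not match that of the scores throughout for either heavy chain. That WT replicate 5 had an H2-K1 level of 23.4 CPM, above the 20.8 CPM of WT replicate 3, which scored higher at 3.53. The order also differed for H2-D1. WT replicates 1 and 4 scored above Fmr1-/y replicates 3 and 6. Their H2-D1 levels were lower, 12.9 and 12.7 against 13.6 and 13.97 CPM. With the endothelial score as a covariate in edgeR, the log2 fold change of H2-K1 was 0.0040 (SE 0.09) and that of H2-D1 0.14 (SE 0.11), and with the mean of the microglial and endothelial scores they were 0.07 (SE 0.10) and 0.19 (SE 0.11). With the astrocyte score they were 0.13 (SE 0.11) and 0.25 (SE 0.12), and with the CA1 pyramidal score 0.32 (SE 0.13) and 0.38 (SE 0.12). The score and the genotype are themselves related in these libraries, and how much of the difference in heavy chain levels belongs to each cannot be told apart.

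**Figure D3:**
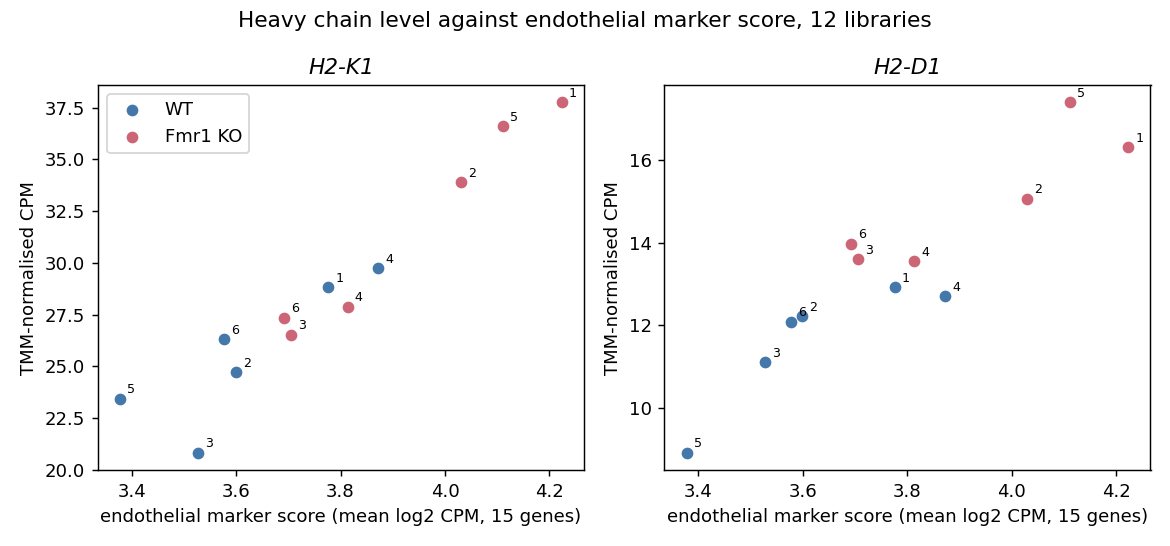
H2-K1 and H2-D1 levels (TMM-normalised CPM, vertical axes not from 0) against the endothelial marker score (mean log2 CPM) in the 12 libraries, numbered by replicate and coloured by genotype. Fmr1-/y replicates 1, 2 and 5 lie at the upper right in both panels, with scores of 4.03 to 4.22.

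**Figure D4:**
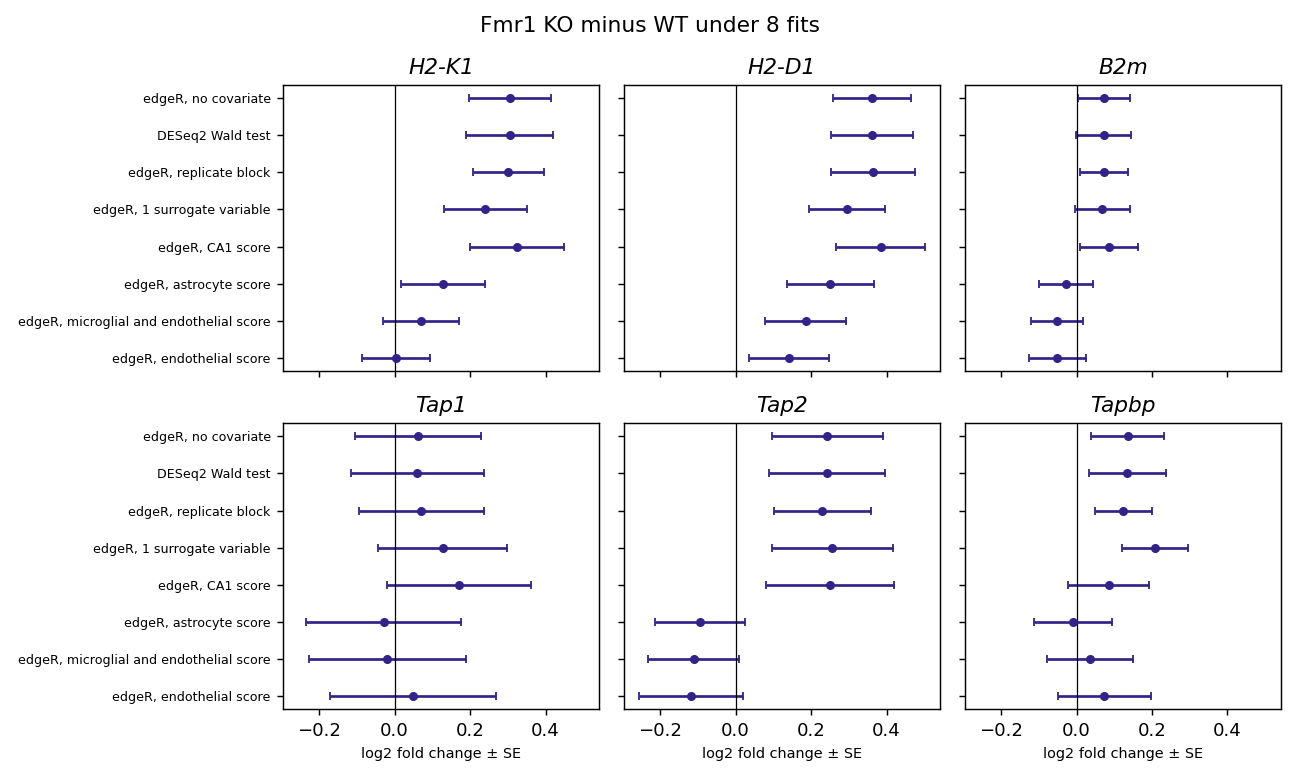
Log2 fold change of each member (Fmr1-/y minus WT, bars are SE) under 8 fits. The H2-K1 estimate is 0.31 with no covariate and 0.0040 with the endothelial score, and that of H2-D1 is 0.36 and 0.14.

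Over the 12 libraries, the genes whose deviations from their genotype mean were most like the mean deviation of H2-K1, H2-D1 and B2m were Mrps6 (Pearson's r = 0.936), Spats2l (0.936), Taf1a (0.927), Cyp4v3 (0.920) and Rftn2 (0.892), among 11281 genes of at least 5 CPM. These values are descriptions over 12 libraries that differed in depth and in marker scores. The members in the mean had r of 0.912 (H2-K1), 0.891 (H2-D1) and 0.860 (B2m) with it. Tap2 had an r of 0.715 (rank 207), while Tapbp had 0.187 (rank 4309).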

How the data were processed

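RNA was prepared from HA immunoprecipitates as stranded libraries and read as 50-base single reads. The authors aligned reads to mm10 with TopHat 2.1.1 and Bowtie 2.2.8 and deposited raw counts per gene from HTSeq 0.6.1p1, without normalization. Groups came from the sample titles. Genes whose summed reads reached 15 (17823 of 24079) were compared in R 4.3.3 with edgeR 4.0.16 (TMM, quasi-likelihood, no covariate, Benjamini-Hochberg over all genes tested, threshold 0.05). Each replicate was a pool, so p-values measure the spread between pools. SE is the log2 fold change divided by the square root of F. Marker scores are mean log2 CPM (prior count 2), compared by exact permutation. Depth was 39400980 to 65565479 reads per library.

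The members and lists were chosen with earlier results of these data known. Named genes are the 6 members, Fmr1, in each other list the 3 of highest mean CPM and the 2 of smallest p, and the 5 most like the heavy and light chains; others are named as picked afterwards. Alternatives were DESeq2 1.42.0, limma 3.58.1 voom, sva 3.50.0, other scalings and filters, robust fitting, a replicate block, marker-score covariates and leaving out each library; the endothelial, astrocyte and CA1 covariates alone were added after the data were seen. Scripts were tested on simulated counts. Exon lengths and transcripts came from GENCODE vM21, gene coordinates and promoters from RefSeq, and alignments were made with Biopython 1.88. Lane assignments, not named in the sources used here, and the imaging, PCR and blot data were not used.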

Additional observations from a re-analysis of the deposited data

Results flagged for a closer look

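In the Fmr1-/y group of 6, B2m in replicate 1 (62.6 CPM) stood apart from the other 5 libraries (51.0 to 53.4 CPM), with a gap to its nearest neighbour of 0.796 of the group's range. The choroid plexus and ependymal marker score of the same library, 7.85 against 7.002 to 7.24, had a gap of 0.714. Both gaps exceed Dixon's 95% critical value for 6 samples. Chance flags about 1 in 20 groups, or 1.6 of the 32 groups searched.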

How the results depend on the processing

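No member and no other pathway gene passed the threshold under any alternative run, and no marker score passed its adjusted threshold. The log2 fold changes of H2-K1 and H2-D1 stayed above 0 in all 26 alternatives each, from 0.0040 to 0.35 and from 0.14 to 0.39, with leave-one-out ranges of 0.25 to 0.35 and 0.30 to 0.39. With the microglial and endothelial covariate B2m was -0.052, Tap1 -0.019 and Tap2 -0.11. With the endothelial covariate B2m was -0.051 and Tap2 -0.12, and with the astrocyte covariate B2m was -0.028, Tap1 -0.029, Tap2 -0.095 and Tapbp -0.0085. Leaving out single libraries gave Tap1 -0.017 (without WT replicate 6) to 0.14, B2m 0.03 to 0.10, Tap2 0.11 to 0.33, Tapbp 0.08 to 0.21, and the interneuron score -0.11 to 0.057 (0.021, 0.00095, 0.057 and 0.027 without Fmr1-/y replicate 6 and WT replicates 3, 4 and 5, against -0.017). The number of all genes called, 4 as reported, was 84 in DESeq2, 1 with at least 10 reads in every library, 2 with a surrogate variable, 1 with either endothelial covariate, 2 with the astrocyte or CA1 covariate, and 2 to 6 with a library left out. The cause of these changes was not tested. Over all genes tested, deviations of same-numbered libraries had r from -0.081 to 0.090, with 0 of 6 pairs over 0.1. Genes with few reads are included, so this cannot decide whether the numbers mark pairs. In a sign-flip test of same-numbered pairs, unadjusted p was 0.03125 for the CA1 pyramidal, 0.03125 for the astrocyte and 0.0625 for the endothelial score. With 6 pairs, 0.03125 is the smallest p that test can give. Its Benjamini-Hochberg adjusted p was 0.15625 for each of these scores. The exact permutation test gave unadjusted p of 0.121, 0.0411 and 0.0303 in the same order. With the replicate block H2-K1 was 0.30 (SE 0.09, against 0.11 without it) and H2-D1 0.36 (SE 0.11, against 0.10), and 0 members were called. Tap1 had the fewest reads of the members, 105 to 249 per library, with a coefficient of variation of 21.6% in WT and 17.5% in Fmr1-/y libraries. Tap2, with 388 to 1056 reads, had 17.6% and 24.6%.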
